A study of Mus musculus with 9 samples.

Results

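The 10 genes described here carry out the main steps by which a cell shows peptides on MHC class I: H2-K1 and H2-D1 (the classical heavy chains of C57BL/6 mice), B2m (the light chain), Tap1 and Tap2 (the peptide transporter), Tapbp (tapasin), Psmb8, Psmb9 and Psmb10 (the catalytic subunits of the immunoproteasome) and Nlrc5 (a regulator of class I transcription). They were taken by name from the deposited count table, where all 10 were found among 55278 usable gene symbols. The table covers 9 RNA-seq libraries of dendritic cells sorted from the thymus of C57BL/6 mice at 8 weeks of age. The mice carried no stated genetic change and received no stated treatment, and the 3 populations, with 3 libraries each, are named XCR1, SIRPa and CD301b for the surface proteins used to tell them apart. The design text speaks of 3 mice, and no source used here says whether a library held 1 animal or several, so p-values measure only the spread between these libraries.

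MHC class I displays short peptides from the inside of the cell to CD8 T cells. The proteasome cuts proteins into peptides, TAP carries them into the endoplasmic reticulum, and tapasin with its partners helps to load them onto the heavy chain bound to beta-2-microglobulin. Interferon-gamma raises most of these genes together, and 3 inducible subunits then replace the standard catalytic subunits of the proteasome. NLRC5 has no DNA-binding domain of its own and acts on class I promoters through factors of the RFX, CREB/ATF and NF-Y families. In the thymus, dendritic cells show self peptides to developing T cells, and the XCR1-positive kind (cDC1) is known for presenting material taken up from other cells on class I.

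Total counts were 20211664 to 25393886 per library, and 5 ribosomal RNA-like genes took 17.8% to 20.7% of them. Levels below are CPM, each gene's counts relative to the library's size, scaled by the TMM method, as mean ± SD over 3 libraries. Xcr1 was at 766 ± 96.8 CPM in the XCR1 libraries, 9.61 ± 5.19 in SIRPa and 0.619 ± 0.403 in CD301b. Sirpa was at 774 ± 58.6 CPM in SIRPa, 646 ± 53.7 in CD301b and 12.5 ± 3.06 in XCR1, and Mgl2, which encodes CD301b, was at 624 ± 58.2 in CD301b, 23.2 ± 5.32 in SIRPa and 1.82 ± 0.508 in XCR1. The sums of 8 cDC1 marker genes were 4640 to 5630 CPM in XCR1 and 482 to 730 CPM in the other libraries, so the labels matched their markers. Summed markers of other cell types also differed: 10 macrophage genes came to 2330 to 2710 CPM in SIRPa, 1360 to 1600 in CD301b and 89.4 to 111 in XCR1. The 12 thymocyte genes came to 695 CPM in XCR1 replicate 3, against 221 and 181 in XCR1 replicates 1 and 2, 436 to 777 in CD301b and 646 to 879 in SIRPa. Cd4 and Tcf7 carried much of this sum in SIRPa (means of 304.8 and 250.1 CPM) and CD301b (214.7 and 150). In XCR1 the mean of Cd4 was 23.97 CPM. Rag1 was highest of all libraries in XCR1 replicate 3 (114.6 CPM), while Cd2 and Themis were highest in CD301b replicate 4 (46.19 and 45.31).

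The promoters of 4 of these genes are shown first: those of the heavy chains, of B2m, and of Tap1 from the divergent Tap1 and Psmb9 pair. They were picked after the levels were seen, and a link between promoter and level was not tested. RefSeq start sites (GRCm38.p6, the build mm10) gave a 300-base window, from 250 bases before to 50 after the start, for 8 of the 10 genes, with no entry used for Tap2 and Nlrc5. Each sequence reads 5′ to 3′ on the gene's strand. Capitals mark matches on either strand to 4 motifs: the interferon-stimulated response element (ISRE, written GAAA, any 2 bases, GAAA), the NF-kB consensus, the core TGACG of the X2 box and the CCAAT of the Y box. No motif shares bases with another, apart from NF-kB matches that lie on each other.
H2-K1, chr17:34000298-34000597, minus strand: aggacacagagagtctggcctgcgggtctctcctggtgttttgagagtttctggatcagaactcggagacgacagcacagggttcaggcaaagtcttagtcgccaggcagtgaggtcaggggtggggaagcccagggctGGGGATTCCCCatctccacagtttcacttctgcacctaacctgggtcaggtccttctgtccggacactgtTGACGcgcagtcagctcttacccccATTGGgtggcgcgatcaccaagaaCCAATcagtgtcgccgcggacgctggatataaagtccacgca
H2-D1, chr17:35262844-35263143, plus strand: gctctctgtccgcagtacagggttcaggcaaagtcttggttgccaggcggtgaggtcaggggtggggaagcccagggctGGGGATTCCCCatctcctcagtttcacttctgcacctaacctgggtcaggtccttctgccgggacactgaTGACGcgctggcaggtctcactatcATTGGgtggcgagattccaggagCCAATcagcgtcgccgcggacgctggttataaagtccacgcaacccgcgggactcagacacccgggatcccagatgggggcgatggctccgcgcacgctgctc
B2m, chr2:122147437-122147736, plus strand: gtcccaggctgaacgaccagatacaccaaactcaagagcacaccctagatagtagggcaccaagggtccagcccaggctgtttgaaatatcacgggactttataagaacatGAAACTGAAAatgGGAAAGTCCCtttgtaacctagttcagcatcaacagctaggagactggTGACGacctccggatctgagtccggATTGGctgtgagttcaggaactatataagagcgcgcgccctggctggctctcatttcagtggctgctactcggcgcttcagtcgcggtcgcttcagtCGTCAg
Tap1, chr17:34187306-34187605, plus strand: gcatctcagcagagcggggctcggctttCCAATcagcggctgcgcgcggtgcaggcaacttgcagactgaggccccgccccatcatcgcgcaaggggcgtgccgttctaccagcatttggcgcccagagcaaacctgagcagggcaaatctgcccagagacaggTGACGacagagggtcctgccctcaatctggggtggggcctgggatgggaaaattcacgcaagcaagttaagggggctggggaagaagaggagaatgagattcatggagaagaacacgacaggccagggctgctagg

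The H2-K1 and H2-D1 windows were close copies around their motifs, with a longest identical run of 47 bases and the same order of NF-kB match, X2 core and Y box. B2m carried an ISRE, an NF-kB match, 2 X2 cores (1 of them after the start, on the other strand) and a Y box. Its ISRE was the only exact match to the written pattern in the 8 windows. Sites that differ from that pattern by a base were not searched for, so a window without a match may still hold such an element. By the RefSeq starts used, Tap1 and Psmb9 start 226 bases apart on opposite strands, at 34187556 and 34187330 of chromosome 17. Their windows share 275 bases with 1 X2 core and 1 Y box. GENCODE, used for the gene positions below, places the Psmb9 start at 34187764, within Tap1. The Psmb8 and Psmb10 windows held none of the 4 motifs, and the Tapbp window held 2 Y box matches alone. Only 1 RefSeq start was taken per gene, and other starts were not searched. The Psmb8 and Tapbp windows (from 34197945 and 33919228) begin after the GENCODE starts of these genes (34197721 and 33915899). Such matches are frequent: of 32851 mouse promoter windows of this length, 3.44% held the ISRE, 8.46% the NF-kB consensus, 20.8% the X2 core and 37.4% the Y box. They describe the letters of these windows and no binding.

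All 10 genes were expressed in all 9 libraries and passed the filter on low counts. Length was taken as the bases covered by any annotated exon of a gene, such as 3381 for Psmb8 and 3660 for Psmb9. It can exceed the length of a transcript, so the order given here depends on it. Set per kilobase of exon, B2m was the most abundant in each population, at 2787 ± 255 CPM per kb in CD301b, 3445 ± 196 in SIRPa and 2374 ± 268 in XCR1. H2-D1 followed with 668, 743 and 697 CPM per kb in the same order, and H2-K1 with 458, 597 and 506. Tapbp (150, 151 and 182) and Psmb8 (102, 102 and 170) came next, ahead of Tap1 (47.1, 50.8 and 88.4). The lowest of the 10 in CD301b and SIRPa was Psmb9, at 17.4 ± 2.08 and 19.2 ± 1.28 CPM per kb, while in XCR1 it stood at 48.6 ± 7.80, beside Tap2 (50.7 ± 5.68) and above the mean of Psmb10 (35.6 ± 8.53), with 1 Psmb9 library (41.9) below the highest of Psmb10 (42.3). Nlrc5, at 23.6, 23.8 and 31.2 CPM per kb, was the lowest in XCR1, though its libraries there (27.5 to 34.6) overlapped those of Psmb10 (26.0 to 42.3).

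**Figure D1:**
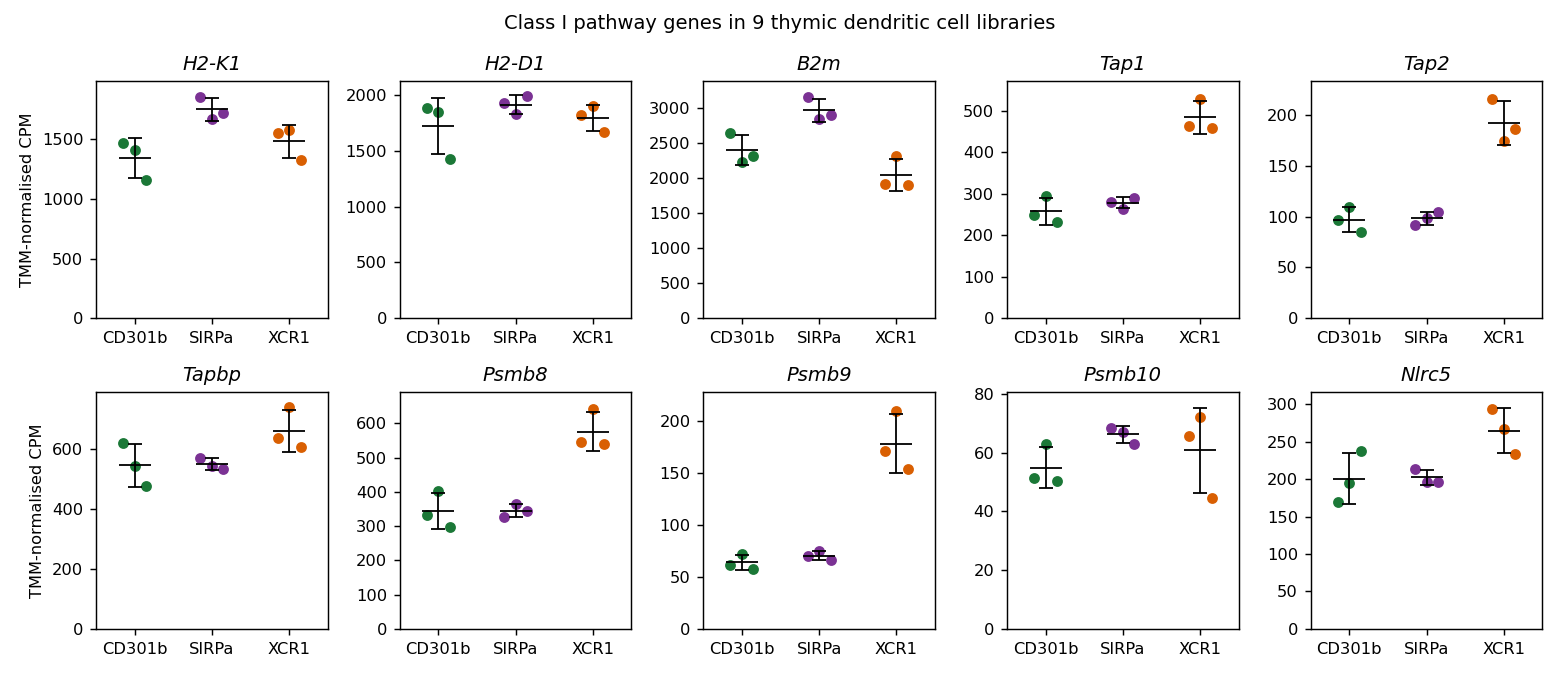
TMM-normalised CPM (vertical axis, from 0) of each gene in the 3 libraries of each population, 1 point per library, with bars for mean and SD. Tap1, Tap2, Psmb8 and Psmb9 lie higher in all 3 XCR1 libraries than in the other 6, whereas B2m is highest in SIRPa and H2-D1 overlaps across the populations.

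Tap1, Tap2, Psmb8 and Psmb9 were higher in XCR1 than in both other populations, with Nlrc5 by a smaller margin, and no class I chain was. Against CD301b, 5 of the 10 genes were higher in XCR1 (Tap1, Tap2, Psmb8, Psmb9 and Nlrc5) and none was lower, where 9.12% of the 15417 genes tested were called higher in XCR1, 13.5% higher in CD301b and 22.6% in either direction. Against SIRPa, the same 5 genes were higher in XCR1 and B2m was lower, beside 10.7% of all genes called higher in XCR1, 13.9% called higher in SIRPa and 24.7% called in all. Between CD301b and SIRPa, 1 gene, H2-K1, passed the test and was lower in CD301b, against a background of 4.28% in either direction, 2.08% higher in SIRPa and 2.2% higher in CD301b. The median log2 difference of the 10 genes was 0.34 (XCR1 minus CD301b), 0.33 (XCR1 minus SIRPa) and 0.12 (SIRPa minus CD301b), and that of all genes tested was -0.05, -0.06 and -0.01. Tap1, Tap2, Psmb8 and Psmb9 showed no overlap of libraries between XCR1 and either other population. H2-K1, B2m, Tapbp and Nlrc5 also showed none between SIRPa and XCR1, and H2-K1, B2m and Psmb10 none between CD301b and SIRPa. Of all genes tested, 34.4% showed none for CD301b against XCR1, 40.2% for SIRPa against XCR1 and 22.1% for CD301b against SIRPa. The comparisons share their libraries in pairs, so the XCR1 libraries enter both comparisons in which Tap1, Tap2, Psmb8 and Psmb9 were called.

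**Figure D2:**
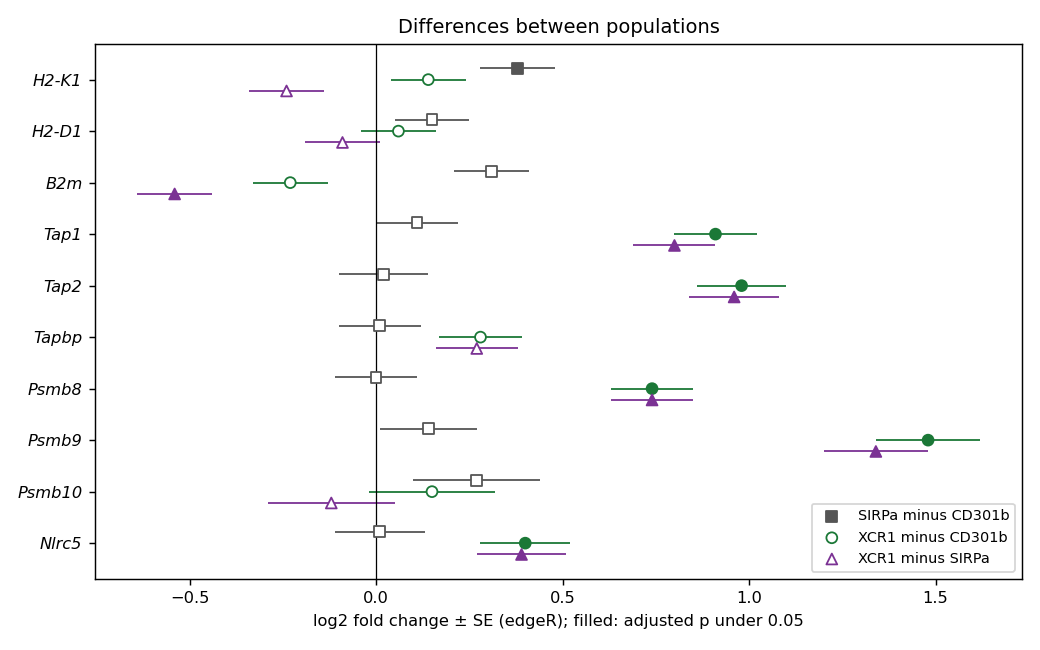
Log2 fold change of each gene between pairs of populations (horizontal axis, 0 for no difference) from edgeR, with SE bars; filled symbols have an adjusted p under 0.05. Psmb9 shows the largest differences of the 10 genes, 1.48 against CD301b and 1.34 against SIRPa, and H2-D1 stays near 0 in each comparison.

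The classical heavy chains were abundant in every population and differed little. H2-K1 (chromosome 17, 33996017 to 34000347, minus strand) was at 1860, 1675 and 1723 CPM in the SIRPa libraries, 1550, 1582 and 1328 in XCR1 and 1472, 1409 and 1157 in CD301b. The SIRPa libraries were the highest, and those of CD301b and XCR1 overlapped. H2-K1 was lower in CD301b than in SIRPa by a log2 difference of 0.38 ± 0.10 (SE), with an edgeR adjusted p of 0.0356. This call ended without CD301b replicate 3 (edgeR adjusted p 0.0572) or 4 (0.0922) and without SIRPa replicate 1 (0.173), 2 (0.0663) or 3 (0.0912). The differences of XCR1 from SIRPa (edgeR adjusted p 0.101) and from CD301b (0.372) did not pass, although the first did in 6 of 16 alternative analyses, with an adjusted p down to 0.0126 with total counts.

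H2-D1 (chromosome 17, 35262730 to 35267499, plus strand) was at 1927, 1829 and 1992 CPM in SIRPa, 1820, 1900 and 1670 in XCR1 and 1885, 1848 and 1432 in CD301b. The 3 groups overlapped, with CD301b replicate 4 the lowest, and no comparison passed (edgeR adjusted p 0.583 for CD301b against SIRPa, 0.758 for CD301b against XCR1 and 0.604 for SIRPa against XCR1). For each 100 counts of H2-K1 there were 128 ± 3.71 counts of H2-D1 in CD301b, 109 ± 6.01 in SIRPa and 121 ± 4.29 in XCR1. These heavy chains resemble other class I genes, and 9.63% of the 50-base stretches of H2-K1 transcripts and 12.8% of those of H2-D1 occur in transcripts of another gene, so part of their reads could be assigned elsewhere. B2m and Psmb10 had no such stretch.

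B2m encodes beta-2-microglobulin, which every classical class I molecule needs to reach the surface. The gene (chromosome 2, 122147686 to 122153083, plus strand) was at 3153, 2833 and 2902 CPM in SIRPa, 2646, 2233 and 2312 in CD301b and 1914, 2308 and 1903 in XCR1. SIRPa lay above both others without overlap, and CD301b and XCR1 overlapped. B2m was higher in SIRPa than in XCR1 by 0.54 ± 0.10 on the log2 scale (edgeR adjusted p 0.000277). The difference of SIRPa from CD301b, 0.31 on that scale, had an edgeR adjusted p of 0.0915 and passed with total counts (0.0196), DESeq2 (0.0137), limma-voom (0.00893) and without the filter (0.0277). The difference of CD301b from XCR1 was 0.23 (edgeR adjusted p 0.101) and passed in 4 of 16 alternatives, among them total counts (0.0484), limma-voom (0.0247) and without XCR1 replicate 2 (0.0282). The macrophage marker sum was also highest in SIRPa and lowest in XCR1, with 9 of its 10 genes called higher in SIRPa than in XCR1 and Marco at 0 in the XCR1 libraries. The mature DC markers came to 3200 to 3280 CPM in SIRPa, 2870 to 3240 in CD301b and 2200 to 2870 in XCR1, with 5 of 8 called higher in SIRPa than in XCR1. B cell markers came to 16.8 to 34.6, 7.29 to 8.66 and 2.44 to 14.6 CPM in the same order, with 3 of 7 called higher in SIRPa than in XCR1, and granulocyte markers to 14.9 to 61.4, 0 to 7.13 and 0.449 to 40.7, with none called. Plasmacytoid DC markers were ordered otherwise, at 484 to 622 CPM in CD301b, 336 to 377 in SIRPa and 115 to 141 in XCR1. Of these, 3 of 7 were called higher in SIRPa than in XCR1. The part of these cell types in the B2m difference was not tested. In a bulk library, fewer cells of a type and less RNA per cell cannot be told apart.

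TAP is a dimer of TAP1 and TAP2 that uses ATP to move peptides across the membrane of the endoplasmic reticulum. Tap1 (chromosome 17, 34187553 to 34197225, plus strand) was at 464.3, 529.1 and 458.1 CPM in XCR1, 280.4, 263.7 and 289.6 in SIRPa and 248.9, 293.7 and 231.2 in CD301b. Every XCR1 library lay above the other 6. Tap1 was 1.88-fold higher in XCR1 than in CD301b (log2 0.91 ± 0.11, edgeR adjusted p 1.29e-06) and 1.74-fold higher than in SIRPa (log2 0.80 ± 0.11, 6.51e-06). CD301b and SIRPa overlapped (edgeR adjusted p 0.776).

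Tap2 (chromosome 17, 34203527 to 34216321, plus strand) was at 215.7, 174 and 185.9 CPM in XCR1, 92.14, 98.36 and 104.6 in SIRPa and 96.94, 109.1 and 85.14 in CD301b. The XCR1 libraries again lay above the other 6, by 1.98-fold over CD301b (log2 0.98 ± 0.12, edgeR adjusted p 3.14e-06) and 1.95-fold over SIRPa (log2 0.96 ± 0.12, 3.89e-06). Both TAP chains differed by a similar fold, and there were 37.6 ± 1.14 counts of Tap2 per 100 of Tap1 in CD301b, 35.4 ± 2.30 in SIRPa and 40 ± 6.80 in XCR1. Tap2 shares 533 exon bases with Gm15821 on the opposite strand, which was listed at 0.457 to 2 CPM as a population mean.

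Tapasin, the product of Tapbp, bridges TAP and the empty heavy chain and edits the peptides that are loaded. Tapbp (chromosome 17, 33915899 to 33929292, plus strand) was at 636.9, 739.7 and 606.7 CPM in XCR1, 571.1, 541.8 and 534.2 in SIRPa and 618.2, 541.6 and 475.7 in CD301b. The XCR1 libraries were higher than those of SIRPa and overlapped CD301b. The log2 differences of 0.28 from CD301b (edgeR adjusted p 0.0659) and 0.27 from SIRPa (0.0733) did not pass, although they did in 5 and 7 of 16 alternative analyses. Tapbp shares 904 exon bases with the antisense gene Gm19412, whose population means were 1.65 to 2.74 CPM, and no source used here gives the strand setting of the counting.

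Among the immunoproteasome subunits, Psmb8 and Psmb9 were higher in XCR1 and Psmb10 was not called. Psmb9 (beta-1i; chromosome 17, 34181987 to 34187764, minus strand) was at 171.2, 209.2 and 153.3 CPM in XCR1, 70.33, 75.03 and 65.7 in SIRPa and 61.3, 72.36 and 57.74 in CD301b. It was 2.79-fold higher in XCR1 than in CD301b (log2 1.48 ± 0.14, edgeR adjusted p 3.93e-08) and 2.53-fold higher than in SIRPa (log2 1.34 ± 0.14, 1.6e-07). No XCR1 library overlapped another population, and CD301b against SIRPa did not pass (edgeR adjusted p 0.764).

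Psmb8 (beta-5i; chromosome 17, 34197721 to 34201454, plus strand) was at 545.9, 641.5 and 539.3 CPM in XCR1, 325.4, 363.7 and 343.6 in SIRPa and 333.6, 401.4 and 298.5 in CD301b. The XCR1 libraries lay 1.67-fold above both others (log2 0.74 ± 0.11 each; edgeR adjusted p 3.64e-05 against CD301b and 3.3e-05 against SIRPa). The CD301b and SIRPa means were both 344 CPM. Psmb8 shares 498 exon bases with the antisense gene Gm20496, which reached no more than 1.88 CPM in a library.

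Psmb10 (beta-2i) lies outside the MHC (chromosome 8, 105935735 to 105938444, minus strand). It was at 65.75, 72.12 and 44.37 CPM in XCR1, 68.29, 67.04 and 63.06 in SIRPa and 51.18, 62.8 and 50.35 in CD301b. XCR1 replicate 3, the XCR1 library with the highest thymocyte marker sum, was the lowest of all 9, and what part thymocyte RNA had in that value was not tested. SIRPa lay just above CD301b without overlap, but no comparison passed (edgeR adjusted p 0.529 for CD301b against SIRPa, 0.614 for CD301b against XCR1 and 0.69 for SIRPa against XCR1).

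NLRC5 is the counterpart for class I of CIITA, the master regulator of class II genes. Nlrc5 (chromosome 8, 94434356 to 94527272, plus strand) was at 293.6, 267.4 and 233.3 CPM in XCR1, 214, 196.1 and 196.7 in SIRPa and 169.6, 194.4 and 237.1 in CD301b. XCR1 lay above SIRPa, while CD301b replicate 4 was higher than XCR1 replicate 3. The log2 difference was 0.40 ± 0.12 from CD301b (edgeR adjusted p 0.0207) and 0.39 ± 0.12 from SIRPa (0.0231), smaller than that of TAP and of Psmb8 and Psmb9. Against CD301b the call ended without CD301b replicate 1 (edgeR adjusted p 0.0971) or 3 (0.0608) and without XCR1 replicate 1 (0.113) or 2 (0.0513). Against SIRPa it ended without SIRPa replicate 2 (edgeR adjusted p 0.0721) or 3 (0.0736), without XCR1 replicate 1 (0.127) or 2 (0.0576), and with total counts (0.0704). Ciita was ordered otherwise, at 590 ± 22.5 CPM in CD301b, 500 ± 56.8 in XCR1 and 425 ± 22.3 in SIRPa, and it was higher in CD301b than in SIRPa (log2 0.47 ± 0.10, edgeR adjusted p 0.00589; 0.0548 without SIRPa replicate 1).

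The epithelial marker list also had its highest sum in XCR1 (447 to 536 CPM, against 212 to 255 in CD301b and 243 to 249 in SIRPa), with 1 of 8 genes called higher in XCR1 than in SIRPa and 2 called lower. That sum was mainly Ly75, a surface receptor that cDC1 also carry, at 441 ± 40.4 CPM in XCR1. The thymic epithelial genes Psmb11 and Foxn1 were at 0.340 and 0.161 CPM there.

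Because each inducible subunit takes the place of 1 standard subunit in the proteasome, their counts were also set against each other within each library, which needs no scaling between libraries. The standard subunits Psmb5 and Psmb6 passed the test in no comparison, with edgeR adjusted p values of 0.572 and 0.217 for CD301b against XCR1 and 0.624 and 0.113 for SIRPa against XCR1. Psmb7 was higher in XCR1, at 84.4 ± 10.4 CPM against 56.0 ± 4.64 in CD301b (log2 0.59 ± 0.14, edgeR adjusted p 0.00362) and 54.1 ± 4.16 in SIRPa (log2 0.64 ± 0.14, 0.00163).

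The 3 ratios did not move in 1 direction. Psmb9 counts per count of Psmb6 were 2.32, 2.04 and 2.12 in XCR1, 1.11, 1.2 and 0.979 in SIRPa and 0.77, 1.04 and 1.09 in CD301b, so that XCR1 lay 2.11-fold above the others (exact permutation test of the F statistic over 1680 arrangements, one-sided for large F, p = 0.0143, adjusted over the 3 ratios 0.0214). Psmb8 per Psmb5 was 22.1, 15.9 and 18.3 in XCR1, 12.9, 14.2 and 11 in SIRPa and 14.5, 10.9 and 14.5 in CD301b, 1.44-fold higher in XCR1 (exact permutation p = 0.0321, adjusted 0.0321). Psmb10 per Psmb7 went the other way, with 0.906, 0.812 and 0.483 in XCR1, 1.25, 1.16 and 1.27 in SIRPa and 0.861, 1.09 and 0.992 in CD301b (exact permutation p = 0.0107, adjusted 0.0214). Here SIRPa was the highest without overlap, XCR1 and CD301b overlapped, and XCR1 stood at 0.648 of the other libraries. For each ratio the test asked whether the 3 populations differed in any way, so XCR1 against the others was not tested on its own.

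The smallest p this design allows is 0.00357. With 1 library left out in turn, the adjusted exact permutation p of Psmb9 to Psmb6 rose to at most 0.0643 and passed in 6 of 9 cases, failing without CD301b replicate 1, SIRPa replicate 1 or SIRPa replicate 2. Psmb8 to Psmb5 passed in 2 of 9 (at most 0.136), without CD301b replicate 3 or XCR1 replicate 2, and Psmb10 to Psmb7 in 4 of 9 (at most 0.0786), failing without CD301b replicate 1 or 4 or any 1 SIRPa library. Without XCR1 replicate 3, the log2 difference of Psmb10 to Psmb7 between XCR1 and the other libraries was -0.35 in place of -0.63.

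**Figure D3:**
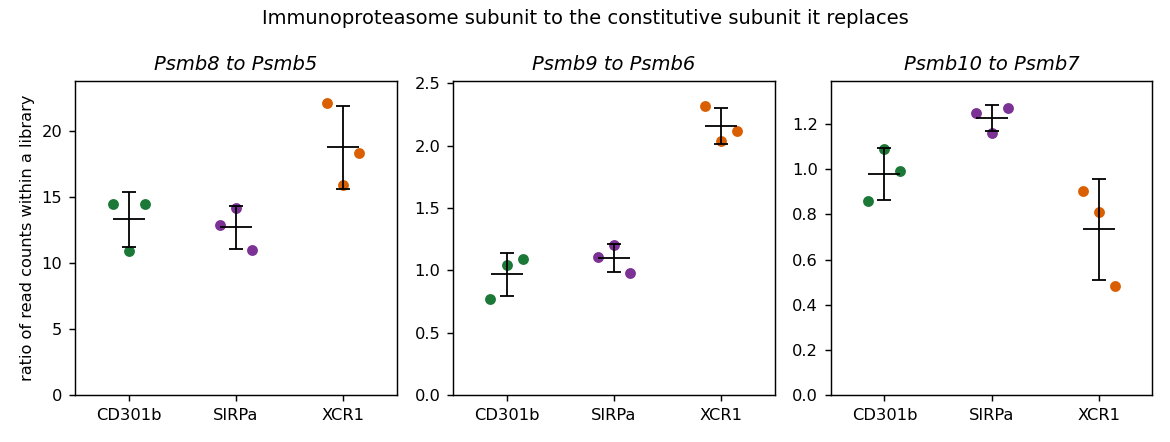
Ratio of read counts of each immunoproteasome gene to the standard subunit gene it replaces, within each library (vertical axis, from 0), with mean and SD. XCR1 libraries are highest for Psmb9 to Psmb6 (2.04 to 2.32) and Psmb8 to Psmb5 (15.9 to 22.1), and SIRPa libraries are highest for Psmb10 to Psmb7 (1.16 to 1.27).

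Set against the heavy chain, the transporter and subunit transcripts made up a larger part in XCR1. There were 32.6 ± 2.38 counts of Tap1 per 100 of H2-K1 in XCR1, 15.9 ± 0.872 in SIRPa and 19.2 ± 2.07 in CD301b. For Psmb9 the values were 11.9 ± 1.14, 4.02 ± 0.394 and 4.76 ± 0.524 counts per 100 of H2-K1. B2m went the other way, with 138 ± 12.3 in XCR1, 169 ± 0.550 in SIRPa and 179 ± 20.7 in CD301b. Within the divergent pair, Psmb9 came to 36.6 ± 3.05 counts per 100 of Tap1 in XCR1, 25.4 ± 2.89 in SIRPa and 24.7 ± 0.201 in CD301b, so that Psmb9 differed more than the partner it shares its upstream region with. These ratios were chosen after the levels were seen and are given without a test. In GENCODE, unlike the RefSeq starts of the promoter windows, Tap1 and Psmb9 exons overlap by 212 bases on opposite strands. This is 3.87% of the Tap1 and 5.79% of the Psmb9 exon bases.

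Psmb9, Tap1, Psmb8 and Tap2 lie next to each other in that order in the MHC class II region, within 34181987 to 34216321 of chromosome 17, and all 4 were higher in XCR1. Their protein-coding neighbours within 100 kb serve class II presentation or transcription and did not share 1 direction. On the side of Psmb9, H2-DMb1 (a chain of the class II peptide editor) was at 205 CPM in XCR1, 130 in SIRPa and 212 in CD301b, with XCR1 higher than SIRPa (log2 0.65, edgeR adjusted p 0.000135). The next gene, H2-DMb2, was lower in XCR1 than in CD301b (log2 -1.97, edgeR adjusted p 1.94e-09) and in SIRPa (log2 -1.50, 1.15e-07). On the side of Tap2, H2-Ob, a chain of the DM inhibitor DO, was higher in XCR1 (log2 0.59 over CD301b, edgeR adjusted p 0.00521, and 1.12 over SIRPa, 7.34e-06). H2-Aa, a chain of the classical class II molecule, was lower in XCR1 than in CD301b (log2 -0.50, edgeR adjusted p 0.000292) and near SIRPa (-0.01, 0.949). Farther out, Brd2, a chromatin reader, was higher in XCR1 by 0.35 and 0.33 (edgeR adjusted p 0.0114 and 0.0165), less than the 4 genes between them. That call ended without XCR1 replicate 1 (edgeR adjusted p 0.0675 and 0.0909) and, against SIRPa, without SIRPa replicate 2 (0.0642).

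**Figure D4:**
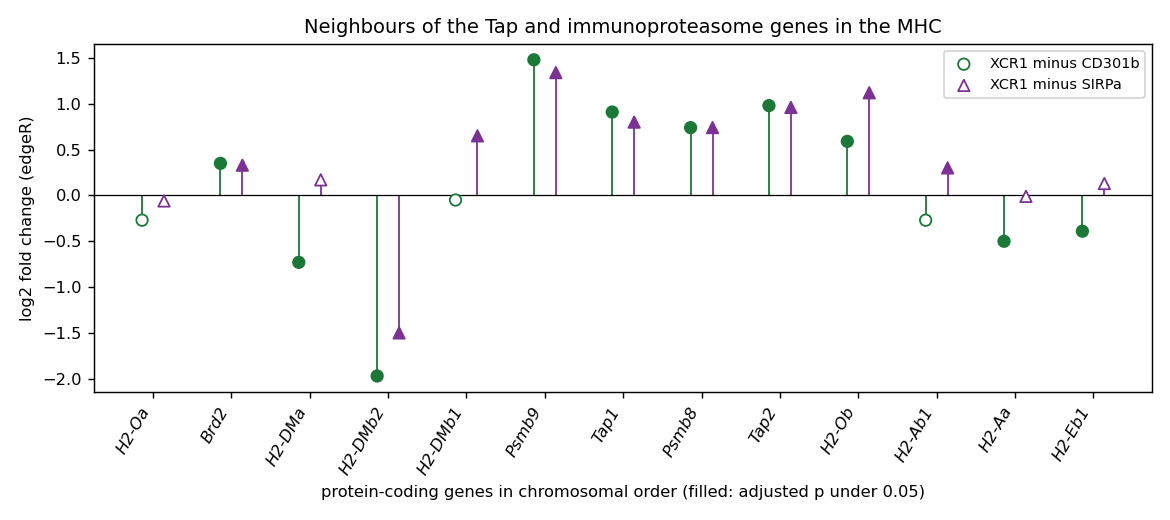
Log2 fold change from edgeR (vertical axis) of the protein-coding genes around Psmb9, Tap1, Psmb8 and Tap2, in chromosomal order; filled symbols have an adjusted p under 0.05. The 4 genes stand above 0 in both comparisons with XCR1, and the genes at their sides lie on either side of 0.

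Across the 9 libraries the 10 genes fell into uneven company, given here as Pearson correlations of log2 CPM that share the population differences. Tap1 correlated with Psmb8 and Psmb9 at 0.98 each and with Tap2 at 0.96. H2-K1 correlated with H2-D1 at 0.87 and with Tap1 at 0.07, and Nlrc5 with Tap1 at 0.74. After each population's mean was taken off, Tap1 had 0.85 with Psmb8, 0.73 with Psmb9, 0.36 with Tap2 and -0.19 with Nlrc5. H2-K1 then had 0.91 with H2-D1 and 0.61 with Tap1. Among 9847 other genes, those most like Tap1 were Eif3g (0.988), Pcbp2 (0.984) and Psme1 (0.984). Psmb8 was most like Psme1 (0.990), Btf3 (0.986) and Tubb5 (0.982), Nlrc5 like Rnf123 (0.994), Zc3h12c (0.972) and Rbm10 (0.962), and H2-K1 like Gatad1 (0.966), Sh3bp4 (0.951) and Rassf3 (0.925).

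The rest of the pathway was read from fixed lists, and no list was tested as a set. The counts below stand beside the shares of all genes called. Against CD301b, 9.12% of all genes were higher and 13.5% lower in XCR1, and against SIRPa 10.7% were higher and 13.9% lower. Between CD301b and SIRPa, 2.2% were higher and 2.08% lower in CD301b. Of 9 proteasome activator and assembly genes, 3 were higher in XCR1 than in CD301b and 5 higher than in SIRPa, and none was called between CD301b and SIRPa. Psme1 and Psme2 encode the 2 chains of PA28, the cap induced by interferon-gamma. Psme1 stood at 950 ± 80.3 CPM in XCR1, 500 ± 31.7 in SIRPa and 477 ± 76.8 in CD301b (XCR1 over CD301b log2 1.0 ± 0.11, edgeR adjusted p 7.27e-07; over SIRPa 0.93 ± 0.11, 1.91e-06). Psme2 was higher in XCR1 by 0.65 ± 0.11 and 0.57 ± 0.11 (edgeR adjusted p 8.66e-05 and 0.000328). Pomp, the chaperone that helps to assemble the core particle, was higher by 0.67 ± 0.12 and 1.04 ± 0.12 (edgeR adjusted p 0.000254 and 1.24e-06). Psme3 and Psmg3 made up the 5 against SIRPa, where 3 to 5 genes passed with 1 library left out, and Psme3 lost its call without SIRPa replicate 2 or XCR1 replicate 1. Psmg3 kept its call without CD301b replicate 1 or 4 and lost it without any 1 of the other 7 libraries (edgeR adjusted p 0.0501 to 0.151), with total counts (0.06) and without the filter (0.0578).

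Of 8 peptide loading and trimming genes, 3 were higher in XCR1 than in CD301b (Tapbpl, Hspa5 and Pdia3) and 1, Uggt1, was lower. Against SIRPa, 5 were higher in XCR1, the same 3 with Calr and Erap1, and 3 to 6 passed with 1 library left out, the fewest without XCR1 replicate 2. Erap1, with an edgeR adjusted p of 0.0499, lost its call without any 1 SIRPa library or XCR1 replicate 1 or 2. It also lost the call with RLE factors (edgeR adjusted p 0.0561) or total counts (0.138) in place of TMM. Uggt1 lost its call for CD301b against XCR1 without CD301b replicate 1 (edgeR adjusted p 0.129) or XCR1 replicate 3 (0.0661). Tapbpl (TAPBPR, a relative of tapasin that edits peptides outside the loading complex) was at 72.6 ± 9.78 CPM in XCR1, 48.2 ± 2.37 in SIRPa and 34.1 ± 4.26 in CD301b (log2 1.09 ± 0.16 over CD301b, edgeR adjusted p 1.73e-05). Pdia3 (ERp57, the partner of tapasin) was at 1420 ± 142, 878 ± 25.9 and 1108 ± 49.2 CPM (log2 0.69 ± 0.09 over SIRPa, edgeR adjusted p 6.81e-06). Hspa5 (BiP, a general chaperone of the endoplasmic reticulum) was higher in XCR1 by 0.53 ± 0.12 and 0.90 ± 0.12 (edgeR adjusted p 0.00175 and 4.47e-06). Between CD301b and SIRPa, 2 of the 8 were higher in CD301b. Uggt1, which rechecks the folding of glycoproteins, was at 474 ± 69.6 CPM there and 303 ± 17.6 in SIRPa (edgeR adjusted p 0.00105). Pdia3 had an edgeR adjusted p of 0.0418, which ran from 0.0538 to 0.201 without any 1 CD301b or SIRPa library. For Pdia3 it was also 0.0585 with RLE factors and 0.0641 with total counts.

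Of 21 other class I heavy chains and relatives, 16 could be tested. Against CD301b, 3 were higher and 3 lower in XCR1, where 22.6% of all genes were called. Against SIRPa, 1 was higher and 3 were lower in XCR1, near the share of all genes called (24.7%). H2-M2, a nonclassical chain, was at 134 ± 9.26 CPM in XCR1, 389 ± 66.3 in SIRPa and 416 ± 38.1 in CD301b, lower in XCR1 by a log2 difference of 1.54 ± 0.12 from SIRPa (edgeR adjusted p 3.14e-09) and 1.64 ± 0.12 from CD301b (1.35e-09). H2-T24 was also lower in XCR1 (23.4 ± 4.01 CPM, against 50.1 ± 10.4 and 39.3 ± 1.72; edgeR adjusted p 0.000134 and 0.00519), and Mr1 was the other gene called lower there in both, a call that ended against CD301b without XCR1 replicate 2 (0.0565) and against SIRPa without SIRPa replicate 1 (0.0509). H2-Q6 set CD301b apart, with 132 ± 11.9 CPM against 228 ± 11.4 in SIRPa (edgeR adjusted p 0.000158) and 252 ± 30.1 in XCR1 (1.89e-06). H2-Q4 and H2-Q7 were likewise lower in CD301b in both comparisons, although H2-Q4 lost its call against XCR1 without XCR1 replicate 2 (edgeR adjusted p 0.0652) and H2-Q7 lost its call against SIRPa without any 1 CD301b or SIRPa library except CD301b replicate 1 and SIRPa replicate 2. Reads of these genes could be assigned elsewhere, since 26.5% of the 50-base stretches of H2-Q7 and 36.4% of those of H2-Q4 occur in transcripts of another gene. For H2-Q7 the gene that shared most was H2-Q10, for H2-Q6 it was H2-Q7, and for H2-Q4 it was the antisense gene Gm11131, which overlaps 496 of its exon bases. Fcgrt, the heavy chain of the neonatal Fc receptor, which also pairs with beta-2-microglobulin, was at 51.4 ± 6.80 CPM in SIRPa, 128 ± 32.7 in CD301b (edgeR adjusted p 4.17e-05) and 94.9 ± 7.02 in XCR1 (0.000312).

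Among 23 promoter factors and interferon signalling genes, 6 were higher and 5 lower in XCR1 than in CD301b, and 5 were higher and 6 lower than in SIRPa. Without XCR1 replicate 1 or 2, 2 of those 5 still passed. Irf8, a factor needed for cDC1 and one of their markers, was at 1873 ± 202 CPM in XCR1, 356 ± 49.4 in SIRPa and 174 ± 29.5 in CD301b. Irf1, which acts on ISRE sites of class I genes, was at 178 ± 26.5 CPM in XCR1, 127 ± 12.6 in SIRPa and 84.4 ± 11.6 in CD301b, higher in XCR1 than in CD301b (log2 1.07 ± 0.13, edgeR adjusted p 3.02e-06). Jak2, a kinase of the interferon-gamma receptor, was in the opposite order, at 503 ± 24.9, 747 ± 45.8 and 966 ± 57.4 CPM (XCR1 minus CD301b log2 -0.94 ± 0.09, edgeR adjusted p 9.37e-08). Ifnar2, a chain of the type I interferon receptor, was highest in SIRPa, at 109 ± 12.4 CPM, and lowest in XCR1, at 48.2 ± 2.51 (edgeR adjusted p 6.86e-07). Between CD301b and SIRPa, 4 of the 23 were lower in CD301b, Irf8, Irf1 and Ifnar2 among them, and 2 were higher (Ciita and Jak2), and 1 to 6 passed with 1 library left out, the fewest without SIRPa replicate 1. Ifnar2 lost its call without CD301b replicate 1 (edgeR adjusted p 0.0586) or 3 (0.0568) or SIRPa replicate 1 (0.112) or 3 (0.0565), and Jak2 without CD301b replicate 3 (0.0562) or any 1 SIRPa library (0.0542 to 0.155). Irf1 lost it without SIRPa replicate 1 (edgeR adjusted p 0.0848).

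Of 6 cytosolic peptidases, which trim or destroy peptides before TAP, none was called against XCR1. Lap3, leucine aminopeptidase, was lower in CD301b (44.6 ± 1.25 CPM) than in SIRPa (72.5 ± 13.97; log2 difference 0.70 ± 0.15, edgeR adjusted p 0.00918, or 0.103 without SIRPa replicate 1). Nrd1, the most abundant peptidase of the list, passed in no comparison.

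**Figure D5:**
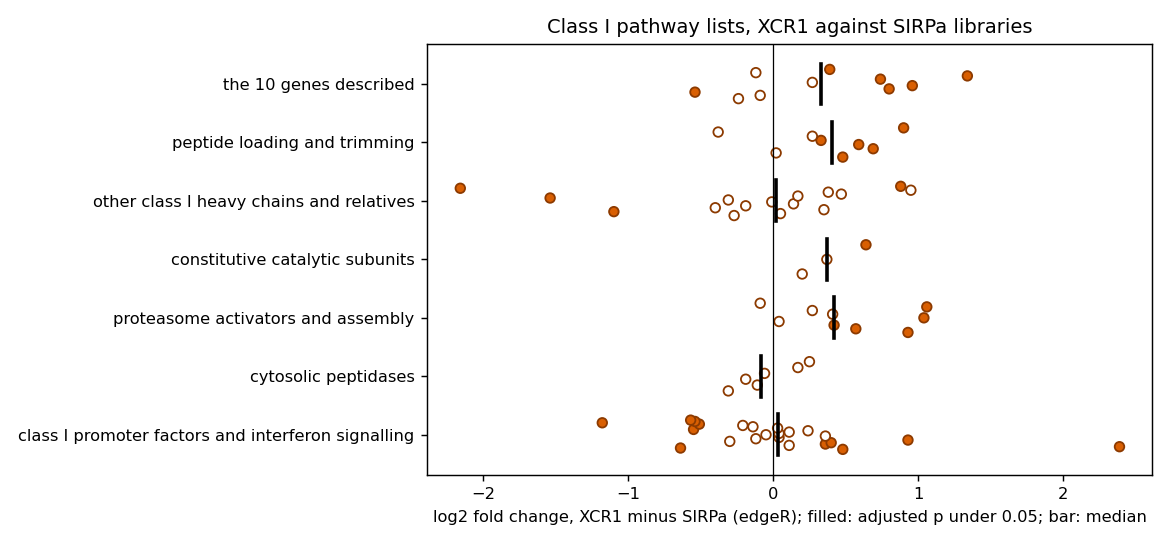
Log2 fold change of XCR1 minus SIRPa from edgeR (horizontal axis) for each gene of the pathway lists, 1 point per gene, filled where the adjusted p is under 0.05, with a bar at the list's median. The medians are 0.33 for the 10 genes described, 0.42 for proteasome activators and assembly and 0.41 for peptide loading and trimming, and 0.02 for the other class I heavy chains.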

How the data were processed

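Per the labels' protocols, thymi were digested with collagenase D, cells were sorted by flow cytometry, and libraries were made from total RNA with a stranded kit for small amounts. The submitters' processing notes name FastQC, Trimmomatic, HISAT2, SAMtools, featureCounts (Subread), edgeR and the build mm10, while no source used here names the annotation or strand setting. The source label says thymocytes and the cell type label thymic dendritic cells, which is used here. The table the authors deposited holds raw counts per gene symbol. In it, 24 of 55302 symbols had become dates, and these (0.125% to 0.187% of counts) were left out. A second deposited table of normalised values was not used.

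Genes were kept with filterByExpr (minimum count 10), which left 15417, and were tested with edgeR 4.0.16 (R 4.3.3, TMM, robust quasi-likelihood, two-sided) in 1 fit of all 9 libraries with Benjamini-Hochberg adjustment over all of them and a threshold of 0.05. The script was tested on simulated data. Alternatives were RLE factors, total counts, DESeq2 1.42.0, limma-voom (limma 3.58.1), no filter, only the 6 libraries compared, a replicate block and leaving out each library. Ratios used raw counts, with 1 CPM added to both as an alternative. The 10 genes are named in every comparison. The rule also names at most 3 called genes per list, by adjusted p, with Ciita, the standard subunits and, where given, the most abundant uncalled gene. Others (Psme3, Psmg3, Erap1, H2-Q7, Mr1, Irf1, Jak2 and Ifnar2 in some comparisons, and the MHC neighbours) were named after their values were seen, and 1 gene that the rule takes is not reported here. Most alike genes were the 3 with the highest correlation of log2(CPM + 0.5) among genes of at least 5 CPM on average. Members and lists were chosen with earlier results of these data known. Positions are from GENCODE M21 on GRCm38 (mm10), promoters from RefSeq. On these library sizes, 3 counts correspond to 0.119 to 0.15 CPM. Deviations of same-numbered libraries from their population means had correlations of -0.008 to 0.091, none over the 0.1 used as a cut. Between SIRPa and XCR1, same-numbered libraries had 0.054 to 0.079 and the others -0.083 to 0.011. Between CD301b and XCR1, libraries of unlike number reached 0.112 and 0.122. Whether the numbers mark shared animals stays unknown.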

Additional observations from a re-analysis of the deposited data

How the results depend on the processing

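Over 16 alternatives for each of the 10 genes in each of the 3 comparisons, 417 of the results kept direction and side of the threshold, 15 fell short of it, 26 newly passed it and 22 turned direction. Tap1, Tap2, Psmb8 and Psmb9 kept their calls against both other populations in all 16 alternatives, as did B2m for SIRPa against XCR1. For CD301b against SIRPa, 2 of the 10 genes passed with total counts, with DESeq2, with limma-voom and without the filter, in place of 1, and 0 to 1 passed with 1 library left out. The number of all genes called there was 328 to 813 with 1 library left out, being 438 without CD301b replicate 3, 328 without SIRPa replicate 1 and 418 without SIRPa replicate 3. With total counts, the share of those calls that were higher in CD301b was 40.5% against 51.4%, and the median log2 difference of all genes for SIRPa minus XCR1 was 0.133 against 0.058.

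With the replicate number as a block, 0, 6 and 8 of the 10 genes passed for CD301b against SIRPa, CD301b against XCR1 and SIRPa against XCR1, beside 660, 2913 and 4034 of all genes, and H2-K1 had an adjusted p of 0.114 for CD301b against SIRPa. Under the block, adjusted p was also 0.0737 for Irf1 and 0.0866 for H2-Q7 in that comparison, and for CD301b against XCR1 0.0504 for H2-Ob (log2 -0.48), 0.133 for H2-Q4 (-0.28 against -0.48) and 0.0637 for Mr1. The numbers are not said to mark shared animals, and not every library correlated best with its own number.

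Directions that turned belong to differences not past the threshold (values are log2, first population minus second). For CD301b against SIRPa, Psmb8 was -0.018 with RLE factors, -0.061 with total counts, -0.018 with DESeq2, -0.0047 with limma-voom, -0.005 without the filter, and -0.12 to 0.092 with 1 library left out (-0.12 without CD301b replicate 3, -0.041 and -0.0073 without SIRPa replicates 1 and 3). Tap2 was 0.031 with the block, 0.02 without SIRPa replicate 3 and -0.11 to 0.064 over all cases of 1 library left out (the highest without CD301b replicate 4). Tapbp was 0.11 with the block, 0.076 without CD301b replicate 4 and 0.016 without SIRPa replicate 1. Psmb9 was 0.013 with the block, and Nlrc5 0.086, 0.0067 and 0.025 without CD301b replicate 1, CD301b replicate 3 and SIRPa replicate 1, from a range of -0.16 to 0.086. Psmb5 was 0.17 with the block and 0.071, 0.13 and 0.073 without CD301b replicates 1 and 4 and SIRPa replicate 3, from a range of -0.33 to 0.13. Psmb6 was -0.076 without CD301b replicate 1 (range to 0.21), and Psmb7 -0.0091 with total counts and -0.014 without SIRPa replicate 3 (range to 0.12). For CD301b against XCR1, H2-D1 was 0.06 with the block and 0.039 without CD301b replicate 4 (range from -0.15), and Psmb10 was 0.0037 with the block. For SIRPa against XCR1, Psmb10 was -0.061 without XCR1 replicate 3 (range to 0.26) and Psmb5 0.014 without XCR1 replicate 2. The cause was not tested.

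The log2 ratio of XCR1 to the other libraries ran from 0.4 to 0.64 for Psmb8 to Psmb5, from 1.0 to 1.12 for Psmb9 to Psmb6 and from -0.8 to -0.35 for Psmb10 to Psmb7 with 1 library left out. With 3 libraries in a population, differences of the size seen for Tapbp lay near the threshold.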
